A study of Mus musculus with 21 samples.

Results

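BMH-21 and CX-5461 are small molecules that block RNA polymerase I, which makes the ribosomal RNA precursor. The comparison described here sets mouse embryonic stem cells given BMH-21 for 4 h directly against cells given CX-5461 for 4 h. Its members are the 6 libraries whose titles name those treatments, 3 with each inhibitor, out of 21 in the series. The study took E14 cells, an embryonic stem cell line of the 129 mouse strain grown in serum with leukaemia inhibitory factor, and changed their medium to one with 1 µM of either inhibitor. Poly(A) RNA was sequenced from untreated cells at 0 h and after 2, 4 and 8 h with each inhibitor, 3 replicates in each of the 7 groups. No group received medium without inhibitor for a matched time, and the titles do not say whether replicates came from separate cultures, so p-values measure only the spread between these samples. Of the 20900 genes in the deposited table, 14666 had a log2 value above 0 in at least 3 of the 21 libraries and were tested.

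The 2 compounds reach RNA polymerase I by different routes. BMH-21 intercalates into GC-rich DNA, blocks the polymerase on ribosomal DNA and leads to loss of its largest subunit, the product of Polr1a. CX-5461 blocks initiation by RNA polymerase I, and is also known to stabilise G-quadruplex DNA and to trap topoisomerase II. When ribosome production stalls, free ribosomal proteins bind Mdm2 and p53 accumulates. In embryonic stem cells a core of transcription factors (Pou5f1, Sox2, Nanog) holds the undifferentiated state, while FGF signalling through ERK primes cells to leave it.

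Whole reads recovered from the deposited values gave 47900214 to 56161917 reads per library in the 6 libraries. A log2 value of 0 stood for 46 to 65 reads there, and 3 reads for -4.24 to -3.74. Levels below are the deposited log2 values with every library shifted to the same median over the genes tested (4.37), and differences are BMH-21 minus CX-5461 in log2 units. The shift matters because the deposited scaling factors of these libraries ran from 0.918 to 1.174, whereas factors computed from the genes by the median-ratio method ran from 0.975 to 1.008. The first principal component of the 6 libraries held 68% of the variance and separated the inhibitors. On the second (9.9%) the third BMH-21 replicate lay at -13.4, apart from the other BMH-21 libraries at 5.9 and 8. Of 8 embryonic stem cell markers, all were tested and 5 differed, beside 45.8% of all genes. The summed level of these 8 on a linear scale was 3480 to 3810 in the BMH-21 libraries, 3620 to 3720 in the CX-5461 libraries and 5510 to 5690 in untreated cells. Fold changes are slightly understated for low genes, because the deposited values hold an offset of 0.5 reads.

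The inhibitors gave different expression profiles at 4 h, mostly by small amounts. A gene is called different here when its adjusted p in limma is under 0.05. By this rule 6719 of 14666 genes differed (45.8%), 4012 higher with BMH-21 (27.4%) and 2707 lower (18.5%). The median difference among the called genes was 0.28 regardless of sign, against a median standard error of 0.067, and 43.9% of them differed by under 0.25. Differences of at least 2-fold were rarer: 75 genes were higher with BMH-21 (0.511%) and 97 lower (0.661%). Among the called genes 7 reached a difference of 2 (4-fold), with 4 higher and 3 lower. The values of the 3 libraries with each inhibitor did not overlap in 8033 genes (54.8%), 4870 higher with BMH-21 (33.2%) and 3163 lower (21.6%). With the values as deposited this held for 3665 genes (25%), 2007 higher (13.7%) and 1658 lower (11.3%). Genes are named below as the 12 largest differences in each direction that also passed as deposited, had no overlap and had a mean level of at least 0, or as members of gene lists. For genes named by size, the lack of overlap is thus set by the rule.

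How many genes were called, and how they split, depended on the scaling. With the values as deposited 2617 genes were called (17.8%), 1372 higher (9.35%) and 1245 lower (8.49%). With median-ratio factors 6116 were called (41.7%), 2580 higher (17.6%) and 3536 lower (24.1%), so the share of calls that were higher was 59.7% with centred values, 52.4% as deposited and 42.2% with median-ratio factors. The median of all genes moved only from 0.05 to -0.01 between the first and the last, and 2952 of the called genes differed by under 0.25. By at least 2-fold, 79 genes were higher (0.539%) and 95 lower (0.648%) as deposited, and 59 (0.402%) and 123 (0.839%) with median-ratio factors. Quantile normalization gave 305 such genes in place of 172, 143 higher and 162 lower.

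**Figure D1:**
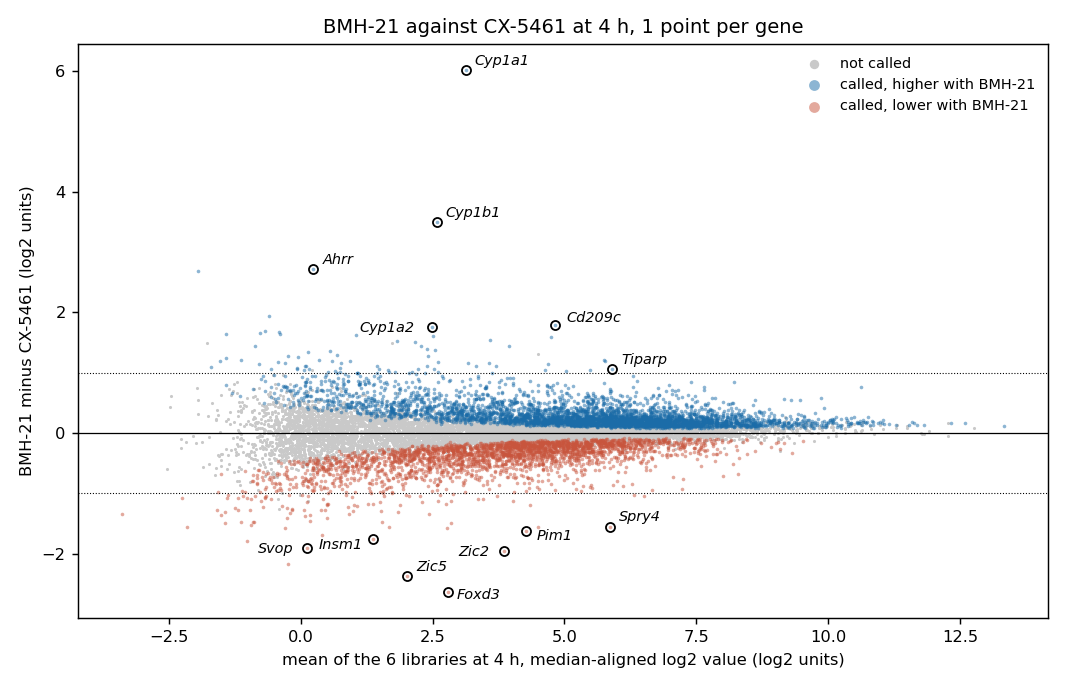
Each point is 1 of the 14666 genes tested, with its mean median-aligned log2 value over the 6 libraries at 4 h on the horizontal axis and the difference BMH-21 minus CX-5461 on the vertical axis, both in log2 units. Dotted lines mark a 2-fold difference. Cyp1a1 stands alone at 6.02, followed by Cyp1b1 and Ahrr, while Foxd3 and Zic5 lie lowest among the genes named.

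Cyp1a1, Cyp1b1 and Ahrr, the 3 genes highest with BMH-21 in that selection, belong to the aryl hydrocarbon receptor pathway. This receptor (AhR, gene Ahr) is a ligand-activated transcription factor that pairs with Arnt and binds a core sequence, GCGTG, near the genes it switches on. Its best-known targets are Cyp1a1, Cyp1a2 and Cyp1b1, which encode monooxygenases that metabolise foreign compounds. Ahrr, a repressor of the receptor, and Tiparp, an ADP-ribosyltransferase that limits it, form feedback loops. To show where the core lies in the 3 genes highest with BMH-21 and in Tiparp, whose product limits the receptor, the RefSeq promoters (GRCm38.p6, 250 bases before to 50 after the start site, read along the gene's strand) of Cyp1a1 (chr9:57697363-57697662, plus strand), Cyp1b1 (chr17:79715012-79715311, minus strand), Ahrr (chr13:74292282-74292581, minus strand) and Tiparp (chr3:65528197-65528496, plus strand) are shown, with the core in capitals as GCGTG or, on the other strand, CACGC:
Cyp1a1: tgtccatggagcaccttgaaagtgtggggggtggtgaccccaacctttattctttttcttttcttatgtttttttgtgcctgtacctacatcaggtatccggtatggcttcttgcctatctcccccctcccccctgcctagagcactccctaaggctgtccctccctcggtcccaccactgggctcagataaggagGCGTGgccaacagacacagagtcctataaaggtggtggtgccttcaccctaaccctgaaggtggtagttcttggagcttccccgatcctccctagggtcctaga
Cyp1b1: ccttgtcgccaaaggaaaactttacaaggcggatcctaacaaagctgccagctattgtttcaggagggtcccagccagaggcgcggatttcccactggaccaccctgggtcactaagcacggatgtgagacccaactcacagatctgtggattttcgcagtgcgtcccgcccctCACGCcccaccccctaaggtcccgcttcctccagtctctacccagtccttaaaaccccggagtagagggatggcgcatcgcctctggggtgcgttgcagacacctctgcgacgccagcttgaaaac
Ahrr: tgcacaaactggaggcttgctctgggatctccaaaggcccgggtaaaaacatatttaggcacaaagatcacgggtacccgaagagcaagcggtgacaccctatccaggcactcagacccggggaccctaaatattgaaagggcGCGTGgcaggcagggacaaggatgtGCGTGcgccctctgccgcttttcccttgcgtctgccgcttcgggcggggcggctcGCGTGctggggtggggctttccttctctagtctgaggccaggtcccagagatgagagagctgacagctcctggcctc
Tiparp: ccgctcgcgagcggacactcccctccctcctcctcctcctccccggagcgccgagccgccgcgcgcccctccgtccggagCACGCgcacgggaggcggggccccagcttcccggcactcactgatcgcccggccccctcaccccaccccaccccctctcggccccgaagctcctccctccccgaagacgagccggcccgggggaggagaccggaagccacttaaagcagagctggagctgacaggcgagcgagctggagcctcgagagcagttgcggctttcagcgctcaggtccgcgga

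The core occurred once in the Cyp1a1, Cyp1b1 and Tiparp windows and 3 times in that of Ahrr. Its first base lay 54 bases before the start site in Cyp1a1, 76 in Cyp1b1 and 170 in Tiparp. In Ahrr the 3 matches began 107, 82 and 27 bases before the start. These letters are common: 32.4% of 32851 promoters of this length held them on either strand, as did 54.6% of the 11000 promoters of genes tested. Among genes at least 2-fold higher with BMH-21 the share was 45.5% (25 of 55 with a promoter sequence), and among those at least 2-fold lower 49.2% (29 of 59). The promoter window of Foxd3, which was lower with BMH-21, held 3 matches, and that of Cyp1a2 held 0. A match is a description of the letters only.

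Cyp1a1 showed the largest difference of any gene tested. It read 6.16, 6.14 and 6.13 in the BMH-21 libraries, but 0.16, 0.03 and 0.17 in the CX-5461 libraries. In reads, that was 3505 to 3614 per library against 50 to 64. The 3 BMH-21 libraries were all far above the CX-5461 ones, which lay close to the untreated mean of -0.20 ± 0.41 (SD, n = 3). The difference was 6.02 ± 0.16 (SE), or 65.1-fold, with an adjusted p of 6.8e-18.

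Cyp1b1 read 4.41, 4.37 and 4.20 under BMH-21 and 0.95, 0.94 and 0.58 under CX-5461. Both inhibitors lay above the untreated mean of -0.41, BMH-21 by 4.73 and CX-5461 by 1.23 (adjusted p = 1.7e-08), and the groups did not overlap. The direct difference was 3.50 ± 0.13, or 11.3-fold (adjusted p = 4.2e-15). Ahrr read 1.52, 1.75 and 1.54 under BMH-21 and -1.24, -1.20 and -0.93 under CX-5461, from 142 to 171 reads against 21 to 26. Its untreated mean of -0.67 lay between the inhibitors, nearer to CX-5461. The difference was 2.72 ± 0.15 (adjusted p = 2.5e-12), and CX-5461 alone differed from the untreated level by -0.45 (adjusted p = 0.0095).

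Cyp1a2 lies beside Cyp1a1 on chromosome 9, with 4225 bases between the GENCODE gene models, on the opposite strand. The GENCODE model of Cyp1a1 begins at 57687928, well before the RefSeq start site used for the promoter above, so the distance depends on the annotation. It read 3.31, 3.27 and 3.52 under BMH-21 and 1.82, 1.47 and 1.55 under CX-5461, without overlap, a difference of 1.76 ± 0.10. Tiparp was higher by 1.06 ± 0.05 (adjusted p = 3e-13): its values were 6.51, 6.42 and 6.37 against 5.33, 5.47 and 5.32, on either side of the untreated mean of 5.68. Lesser differences were seen in Nqo1, a quinone reductase also regulated by Nrf2 (0.62), in Aldh3a1, an aldehyde dehydrogenase (0.40), in Gstp1, a glutathione transferase (0.27), and in Slc7a5, an amino acid transporter (0.24). In all, 9 of 10 AhR targets tested were higher with BMH-21 and 0 lower, with a median difference of 0.84, beside 27.4% higher, 18.5% lower and a median of 0.05 over all genes. The list was written with earlier results of these data known, as were all lists below.

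The receptor and its partners differed little. Ahr itself was higher by 0.33 ± 0.08, reading 3.83, 3.86 and 3.74 against 3.48, 3.63 and 3.35. Ptges3, a co-chaperone of the receptor, was also higher (0.16), although it was not called with median-ratio factors, nor without the second BMH-21 replicate (0.15, adjusted p = 0.084) or the third CX-5461 replicate (0.09, adjusted p = 0.23). Arnt had a difference of -0.03 ± 0.05 (adjusted p = 0.69). Over the whole pathway list 12 of 14 members were higher (85.7%, beside 27.4% of all genes) and 0 lower (beside 18.5%) with centred values. As deposited 8 were higher, beside 9.35% of all genes, and Gstp1 and Slc7a5 were among those not called.

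The AhR targets did not keep one course over time. At 2 h the difference was already larger than at 4 h in Cyp1a1 (7.17), Cyp1b1 (4.92), Ahrr (3.53) and Tiparp (1.79). By 8 h it stood at 5.10 in Cyp1a1 and 3.46 in Cyp1b1 but at 0.43 in Ahrr (adjusted p = 0.013). Cyp1a2 differed by 1.43, 1.76 and 1.77 at 2, 4 and 8 h. The libraries at 2 h and 8 h are separate from those at 4 h.

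The other genes in the higher group came from many families. Cd209c, a C-type lectin gene, read 5.79, 5.63 and 5.76 with BMH-21 against 3.92, 4.03 and 3.85 with CX-5461, a difference of 1.79 ± 0.07. With CX-5461 it sat 0.33 above the untreated mean of 3.60, and with BMH-21 2.12 above it. Rassf4, a Ras-association domain gene, read 5.65, 5.51 and 5.45 against 4.06, 3.79 and 3.99, while untreated cells had 2.56 ± 0.14. Both inhibitors were thus above untreated for Rassf4, BMH-21 by a further 1.59 ± 0.09.

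Oaf, a secreted-protein gene, followed the same order, reading 3.21, 3.33 and 3.42 with BMH-21, 1.66, 1.76 and 1.71 with CX-5461 and a mean of 0.89 untreated (difference 1.61 ± 0.13). Pcdh8, a protocadherin, and Itih3, an inter-alpha-trypsin inhibitor heavy chain, were also raised by both inhibitors over untreated cells and differed by 1.53 and 1.45. Itih3 was the most induced of the 12 by CX-5461, 2.73 above untreated, with 4.18 for BMH-21. Gabrr1, a GABA receptor subunit, differed by 1.63 at 172 to 188 reads against 56 to 71.

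The remaining genes in the higher group are not ordinary protein-coding genes. Olfr1372-ps1, annotated as a transcribed pseudogene on chromosome 11 (chr11:52154722-52168159), differed by 1.51. Dbhos, annotated as an antisense RNA on chromosome 2 (chr2:27144898-27162703), read 4.43, 4.28 and 4.38 against 2.70, 2.91 and 2.84, a difference of 1.55 ± 0.09. Its neighbour Fam163b, 2407 bases away, was lower with BMH-21 (a difference of -1.13). Whether reads were assigned by strand is not stated, so the value of an antisense gene may hold reads of its partner.

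**Figure D2:**
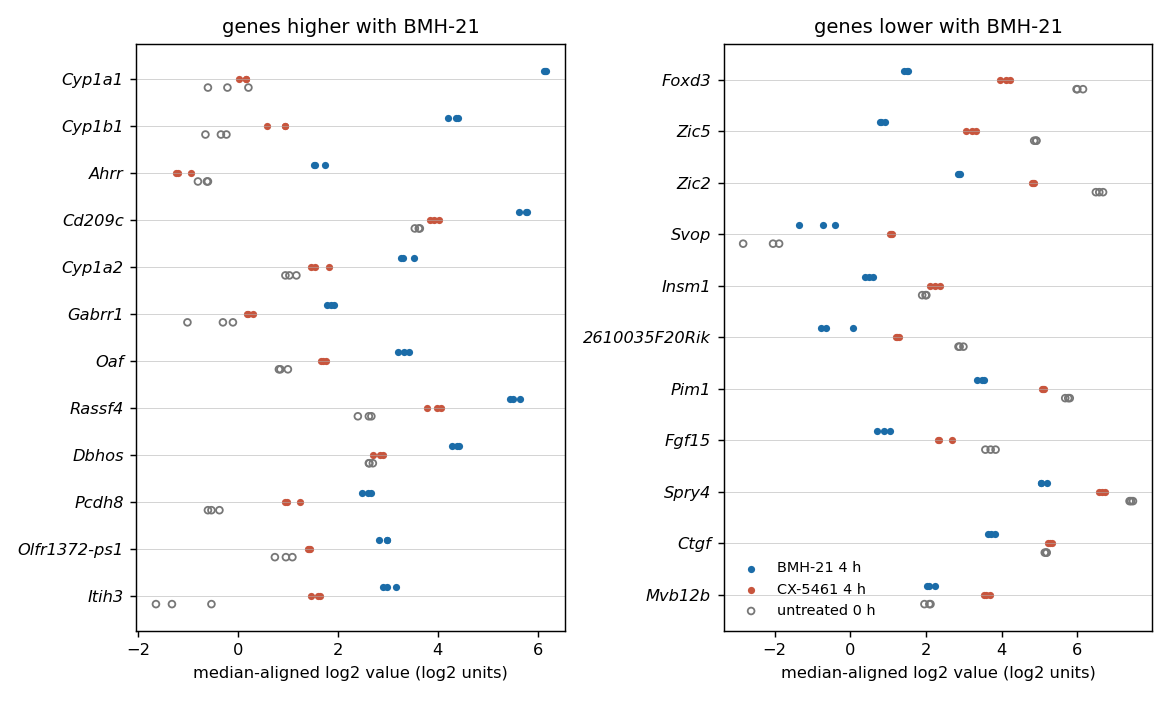
Median-aligned log2 values (log2 units) of the 23 genes named by the size of their difference, 12 higher and 11 lower with BMH-21, with 1 point per library: BMH-21 at 4 h (blue), CX-5461 at 4 h (red) and untreated at 0 h (open). The blue and red points do not overlap in any row, as the rule that chose the genes required. In the left panel CX-5461 usually sits between untreated and BMH-21, and in the right panel Foxd3, Zic5 and Zic2 show the reverse order.

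Transcription factors of early development led the genes that were lower with BMH-21. Foxd3, a forkhead factor of the epiblast and neural crest, read 1.49, 1.41 and 1.53 under BMH-21 and 4.12, 4.22 and 3.96 under CX-5461. Untreated cells read 6.04 ± 0.10, so both inhibitors lay below them and BMH-21 lay lower, without overlap. The direct difference was -2.63 ± 0.09 (6.18-fold, adjusted p = 1e-15). In the single-exon Foxd3 gene (chr4:99656299-99658622) this was 135 to 144 reads against 781 to 1005.

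Zic5 and Zic2 encode zinc finger factors and lie 9758 bases apart on chromosome 14, in opposite directions. Zic5 read 0.80, 0.92 and 0.79 under BMH-21 and 3.06, 3.22 and 3.32 under CX-5461. Zic2 read 2.87, 2.86 and 2.90 against 4.86, 4.79 and 4.82. Both were far below their untreated means of 4.89 and 6.59 with either inhibitor, and the differences between inhibitors were -2.37 ± 0.08 and -1.95 ± 0.07. The noncoding transcript 2610035F20Rik starts 236 bases from Zic2 and was lower as well, by -1.69 ± 0.16 at 29 to 52 reads against 113 to 141.

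In 3 of the lower genes the inhibitors stood on different sides of the untreated level, or only 1 of them moved from it. Insm1, a zinc finger factor of neuroendocrine cells, read 0.40, 0.50 and 0.59 under BMH-21 and 2.12, 2.37 and 2.24 under CX-5461, around an untreated mean of 1.97 ± 0.06. Ctgf, a secreted matrix protein and a target of Yap, read 3.65, 3.72 and 3.82 against 5.28, 5.32 and 5.23, with 5.17 untreated. BMH-21 thus moved Ctgf by -1.44 from untreated, while CX-5461 differed from untreated by 0.11 (adjusted p = 0.053). Mvb12b, a subunit of the ESCRT-I sorting complex, showed the opposite. It read 2.23, 2.08 and 2.03 with BMH-21, which differed from the untreated mean of 2.06 by 0.06 (adjusted p = 0.56). With CX-5461 it read 3.58, 3.53 and 3.70.

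Svop, a synaptic vesicle transporter gene, was above its untreated mean of -2.25 with both inhibitors. It read -1.35, -0.41 and -0.72 under BMH-21 and 1.10, 1.04 and 1.08 under CX-5461, from 19 to 38 reads against 101 to 123. The Svop gene model overlaps Usp30 on the other strand, which was higher with BMH-21 by 0.21. Pim1, a serine/threonine kinase downstream of Stat3, read 3.48, 3.35 and 3.54 against 5.09, 5.06 and 5.12, with 5.74 untreated. Its difference was -1.63 ± 0.06 (adjusted p = 1.6e-15).

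Genes of FGF signalling, which acts through ERK, differed in both directions, with the larger differences lower with BMH-21. Among the ligands, Fgf15 read 0.89, 0.71 and 1.06 against 2.34, 2.68 and 2.31, a difference of -1.56 ± 0.12, and Fgf4, the main ligand of these cells, read 6.19, 6.20 and 6.19 against 7.16, 7.15 and 7.11, a difference of -0.94 ± 0.03. Fgf5, a marker of primed cells, was lower by -1.52 but near the limit of the filter, and was not called with values below 0 set to 0. Of 8 ligands and receptors in the list 4 were higher and 4 lower, beside 27.4% higher and 18.5% lower over all genes. The higher ones were the ligand Fgf17 (0.33) and the receptors Fgfr3 (0.25), Fgfr4 (0.23) and Fgfr1 (0.21).

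Several feedback inhibitors that ERK induces were lower too. Spry4 read 5.04, 5.20 and 5.03 under BMH-21 and 6.57, 6.73 and 6.64 under CX-5461, below the untreated 7.42 ± 0.04 in both and without overlap. Spry2 (-0.86), Spry1 (-0.77) and the ERK phosphatases Dusp6 (-0.62) and Dusp4 (-0.62) followed. For Dusp6 the untreated mean of 5.58 lay between BMH-21 (5.25, 5.31 and 5.22) and CX-5461 (5.87, 5.89 and 5.88). Of 24 members of the FGF and ERK list that were tested, 7 were higher (29.2%, beside 27.4% of all genes) and 12 lower (50%, beside 18.5%), with a median difference of -0.15.

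Formative and primed factors, which mark cells moving out of the naive state, were more often lower than higher. Of 15 such genes 3 were higher (20%, beside 27.4% of all genes) and 8 lower (53.3%, beside 18.5%) with BMH-21, with a median of -0.88. Those that were higher differed by 0.13 at most. Foxd3, Zic2, Zic5, Fgf5 and Fgf15 are among them, so these counts overlap with the genes above. Otx2, a homeobox factor that drives this transition, read 3.72, 3.82 and 3.73 against 4.92, 5.10 and 4.84, a difference of -1.20 ± 0.06. Pou3f1, a POU factor of primed cells, differed by -0.90 ± 0.08. With CX-5461 Pou3f1 stood at 5.01, 4.97 and 4.80, near the untreated mean of 4.98 ± 0.12. Of 13 neural factors 4 were higher and 2 lower, and Sox3, an HMG-box factor, was higher by 0.40.

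Factors of the naive and core network differed by smaller amounts and in both directions. Of 20 tested, 4 were higher (20%, beside 27.4% of all genes) and 10 lower (50%, beside 18.5%), with a median of -0.11. The lower ones include the secreted proteins Fgf4, Lefty1 and Lefty2. Fgf4 is also in the FGF and ERK list, and the Lefty genes in that of BMP, Nodal and WNT signalling, so these counts overlap. Sox2 read 7.93, 7.94 and 7.99 under BMH-21 and 8.56, 8.69 and 8.61 under CX-5461, from 9.26 untreated. Nanog read 7.21, 7.32 and 7.40 against 7.88, 7.88 and 7.79, from 8.92. Klf2, a Krüppel-like factor of naive cells, was lower by -0.92 ± 0.05, and Prdm14, a repressor of FGF signalling and DNA methylation, by -0.82 ± 0.10. In bulk RNA, fewer cells expressing a gene and less RNA per cell cannot be told apart.

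Pou5f1, the gene for Oct4, was 0.16 higher with BMH-21, at 10.44, 10.48 and 10.59 against 10.39, 10.32 and 10.32. That gene was not called as deposited or with median-ratio factors, nor without the third BMH-21 replicate (0.12, adjusted p = 0.054), and the sign turned under quantile normalization (-0.01). Esrrb, an orphan receptor of the naive network, had a difference of 0.02 ± 0.04 (adjusted p = 0.79), while both inhibitors lay below its untreated mean of 8.61. Its sign was negative with median-ratio factors. Lefty1 and Lefty2, secreted inhibitors of Nodal, were lower by -1.04 and -0.61. For Lefty1 the order was unusual, with 6.06 untreated, 6.00, 5.89 and 6.07 under BMH-21 and 7.06, 7.03 and 7.0 under CX-5461, so that only CX-5461 lay above untreated cells.

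BMP and WNT genes were mixed. Of 26 genes in the list of BMP, Nodal and WNT signalling, 5 were higher (19.2%, beside 27.4% of all genes) and 10 lower (38.5%, beside 18.5%). Bmp4, the ligand, read 1.40, 0.90 and 1.54 against 2.43, 2.58 and 2.39, from 5.13 untreated, a difference of -1.19 ± 0.10. Of its target genes Id3 (-0.61) and Id1 (-0.40) were lower and Id2 was higher (0.60). The WNT targets Sp5 (-1.26) and Axin2 (-0.51) were lower and the WNT antagonist Dkk1 was higher, reading 1.20, 1.36 and 1.18 against 0.21, 0.17 and 0.31 (1.02 ± 0.18).

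The p53 target list lay above untreated cells with both inhibitors, by a median of 1.09 with BMH-21 and 0.95 with CX-5461, which share the untreated libraries. Several of its strongest members were higher with BMH-21. Mdm2, the ubiquitin ligase that restrains p53, read 10.19, 10.16 and 10.13 under BMH-21 and 9.60, 9.59 and 9.56 under CX-5461, from a mean of 7.0 untreated. Cdkn1a, the cell-cycle inhibitor p21, read 8.00, 7.97 and 8.03 against 7.37, 7.23 and 7.28, from 5.15 untreated. Neither gene's groups overlapped, and the differences were 0.58 ± 0.03 and 0.71 ± 0.04.

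Among the apoptosis genes Pmaip1, which encodes Noxa, differed most, at 6.41, 6.33 and 6.32 under BMH-21 and 5.13, 5.21 and 5.07 under CX-5461 (1.22 ± 0.06, adjusted p = 4.8e-13). Fas, a death receptor, was higher by 0.78, Eda2r, another receptor of that family, by 0.79, and Plk2, a polo-like kinase, by 0.85. Ccng1, cyclin G1, was higher by 0.41. Not all members followed: Plk3 was lower by -0.64, Polh, a translesion DNA polymerase, by -0.75, and Tigar, a fructose bisphosphatase, by -0.28. In all 19 of 44 genes were higher (43.2%, beside 27.4% of all genes) and 6 lower (13.6%, beside 18.5%). The median was 0.08, beside 0.05 for all genes. Mdm4, a second restraint on p53, was not called (-0.15, adjusted p = 0.06) but was without the first CX-5461 replicate (-0.21, adjusted p = 0.022), and Trp53 itself was higher by 0.12, but was not called as deposited.

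Immediate early genes, which respond rapidly to growth factors and stress, were split. Fos, an AP-1 subunit, read 4.75, 4.75 and 4.81 under BMH-21 and 3.95, 3.97 and 3.80 under CX-5461, from 1.86 untreated. Btg1, an antiproliferative gene, was higher by 0.94 and Ier5, a regulator of heat shock factor, by 0.92. Jun, the partner of Fos, was not called (-0.08, adjusted p = 0.27), though both inhibitors lay about equally above untreated, by 2.03 and 2.11. Klf6, a Krüppel-like factor, was lower by -0.87 ± 0.04. Atf3 was higher by 0.38. Over the list of immediate early genes 9 of 23 were higher (39.1%, beside 27.4% of all genes) and 6 lower (26.1%, beside 18.5%). Its median of 0.01 was -0.05 with median-ratio factors.

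Most heat shock genes were higher with BMH-21. Of 17 tested 12 were higher (70.6%, beside 27.4% of all genes), 0 were lower and 5 were not called, with a median of 0.16. Hspa1a, an inducible Hsp70 gene, read 6.16, 6.24 and 6.26 against 5.55, 5.46 and 5.47, from 3.62 untreated. Its near-identical copy Hspa1b differed by 0.59, and reads of the pair may have been divided between them. Dnajb1, an Hsp40 co-chaperone, was higher by 0.64. As deposited 4 of these genes were higher, beside 9.35% of all genes. With median-ratio factors 9 were higher and 2 lower, beside 17.6% and 24.1% of all genes.

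Genes of endoplasmic reticulum stress and amino acid limitation did not move as one. In the unfolded protein response list 6 of 17 were higher (35.3%, beside 27.4% of all genes) and 6 lower (35.3%, beside 18.5%). The lower ones were led by Herpud1 (-0.79), a degradation factor, and Xbp1 (-0.56), a transcription factor of the response. The chaperone Hspa5 was lower by -0.23. Atf4, the factor of the amino acid response, was lower by -0.52, reading 5.73, 5.74 and 5.91 against 6.31, 6.32 and 6.32. Its target Chac1 was lower by -0.77, but Atf5 (0.83) and Ddit3 (0.64), also downstream of Atf4, were higher. Nrf2-responsive genes included 8 of 15 higher (53.3%) and 1 lower (6.7%), with Gclc, the catalytic subunit of glutathione synthesis, higher by 0.70.

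Genes of G2 and mitosis were higher with BMH-21 nearly throughout. Of 30 tested, 25 were higher (83.3%, beside 27.4% of all genes) and 0 lower, with a median difference of 0.36. Aurka, the kinase of spindle poles, read 7.23, 7.27 and 7.32 under BMH-21 and 6.61, 6.57 and 6.54 under CX-5461. Kif23, a kinesin of cytokinesis, read 7.13, 7.13 and 7.04 against 6.43, 6.49 and 6.50, and Nusap1, a spindle protein, 6.68, 6.67 and 6.60 against 6.01, 6.11 and 5.98. No overlap was seen in these genes.

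Relative to untreated cells the mitotic list had a median change of -0.22 with BMH-21 and -0.51 with CX-5461. Ccnb1, cyclin B1, was higher by 0.50 in the direct comparison, and its partner Cdk1 by 0.38. Plk1, the polo kinase of mitotic entry, was higher by 0.39, at 6.79, 6.73 and 6.80 against 6.37, 6.42 and 6.35, with 7.68 untreated. As deposited 18 of 30 were higher and with median-ratio factors 22, with 0 lower in both. At 2 h the median of the list was 0.15 and 17 were higher, beside 7.83% of all genes. At 8 h it was -0.00 with 10 higher and 10 lower, beside 31.1% and 40.6% of all genes.

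Replication and repair genes included members on both sides with centred values. In the replication and E2F list 9 of 37 were higher (24.3%, beside 27.4% of all genes) and 11 lower (29.7%, beside 18.5%). The median was 0.01 (-0.05 with median-ratio factors). E2f8, an E2F repressor, was lower by -0.61 and the licensing factor Cdc6 by -0.32, while Orc1, of the origin complex, was higher by 0.26. Of 30 homologous recombination genes 4 were higher (13.3%) and 13 lower (43.3%), with a median of -0.10. Fancf (-0.56), Rad51c (-0.42) and Brca1 (-0.28) were among the lower ones. In this list 0 were higher and 4 lower as deposited, beside 9.35% and 8.49% of all genes. With median-ratio factors 0 were higher and 18 lower, beside 17.6% and 24.1%. Of 11 topoisomerase and related repair genes 4 were higher (36.4%, beside 27.4% of all genes) and 1 lower, with a median of 0.09. Top1 was higher by 0.39 and Top2a, the isoform of dividing cells, by 0.33, Top3b was lower (-0.16), and Top2b was not called (0.07, adjusted p = 0.30). Top2a is also a member of the mitotic list.

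**Figure D3:**
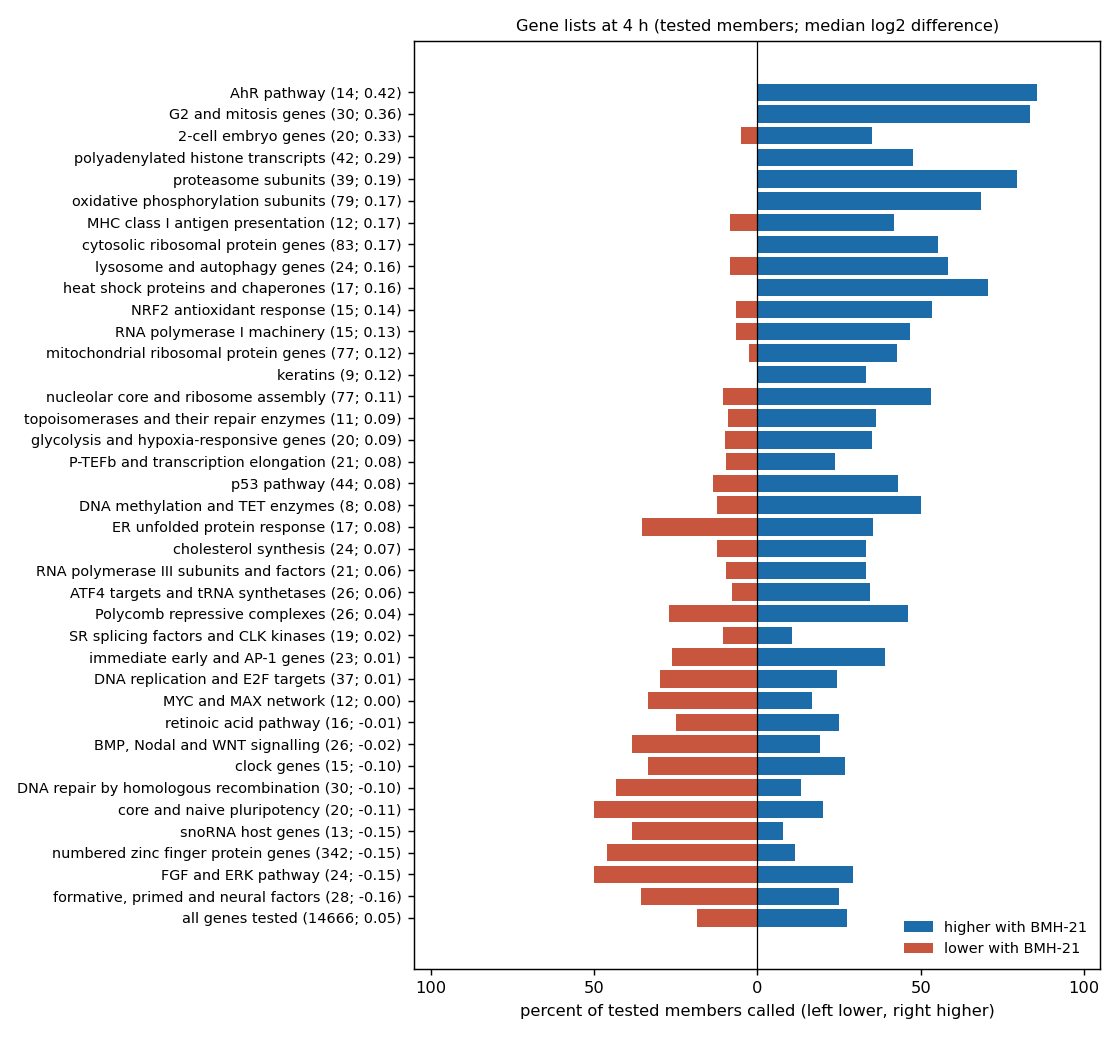
Bars give the percent of tested members of each list that were called at 4 h, higher with BMH-21 to the right and lower to the left. The label of each bar gives the number of members tested and their median log2 difference, and the lowest bar gives all 14666 genes. AhR pathway and mitotic genes have the largest shares on the right, and FGF, pluripotency and zinc finger genes lie mainly on the left.

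The RNA polymerase I machinery, the shared target of the compounds, showed small differences at the RNA level. Of 15 genes 7 were higher (46.7%, beside 27.4% of all genes) and 1 lower (6.7%, beside 18.5%), with a median of 0.13. As deposited 2 were higher and 1 lower, beside 9.35% and 8.49% of all genes. With median-ratio factors 4 were higher and 3 lower, beside 17.6% and 24.1%. Polr1a, the largest subunit, read 8.34, 8.45 and 8.32 under BMH-21 and 8.16, 8.16 and 8.21 under CX-5461, a difference of 0.19 ± 0.05 that was not called as deposited. Polr1e, another subunit, was higher by 0.41 and Taf1d, of the promoter selectivity factor, by 0.39. Ubtf, which keeps ribosomal DNA open, was the 1 lower gene, at 7.52, 7.75 and 7.62 against 8.09, 8.09 and 8.07, from 8.76 untreated (-0.46 ± 0.05).

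Ribosome assembly genes were mostly slightly higher with centred values. Of 77 tested, 41 were higher (53.2%, beside 27.4% of all genes) and 8 lower (10.4%, beside 18.5%), with a median of 0.11. The pseudouridine synthase Dkc1 was higher by 0.31, while Imp3 (-0.53), of the small subunit processome, and Gnl3 (-0.34), nucleostemin, were lower. These counts changed with the scaling, to 4 higher and 4 lower as deposited and 20 higher and 14 lower with median-ratio factors. Over all genes 9.35% were higher and 8.49% lower as deposited, and 17.6% and 24.1% with median-ratio factors. Among 21 genes of P-TEFb and elongation 5 were higher (23.8%) and 2 lower (9.5%). Larp7 (0.31) and Hexim2 (-0.56), both of the 7SK particle, lay on opposite sides. Of 12 genes of the MYC and MAX network 2 were higher (16.7%) and 4 lower (33.3%), with a median of 0.00. Mycn was lower by -0.43 and Mnt by -0.50, while Mxd1 was higher by 0.58 and Mycl by 0.46. Myc itself was not called (0.01, adjusted p = 0.86).

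In 3 abundant housekeeping families many members were a little higher and 0 were called lower, beside 27.4% higher and 18.5% lower over all genes. Of 83 cytosolic ribosomal protein genes 46 were higher and 0 lower (median 0.17), of 79 oxidative phosphorylation subunits 54 and 0 (median 0.17), and of 39 proteasome subunits 31 and 0 (median 0.19). Psmd10, a regulatory particle subunit, reached 0.37. The remaining 37, 25 and 8 members were not called. Few were called as deposited: 1 ribosomal protein gene, 3 oxidative phosphorylation genes and 1 proteasome gene. Over all genes 9.35% were higher and 8.49% lower as deposited. With median-ratio factors 8, 13 and 17 were higher and 0 lower, beside 17.6% higher and 24.1% lower over all genes.

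These families lie where the data as a whole leaned higher with BMH-21. Genes were put in 10 equal groups by level: in the highest the median difference was 0.12 and 51.7% were higher, against -0.01 and 23.2% in group 5. In the same way, the group with the shortest transcripts had a median of 0.13 and the longest -0.01, and the group with the highest transcript GC content -0.00, against 0.06 in the lowest. With the GC trend removed from each library 2945 genes were higher and 3238 lower, so that 47.6% of calls were higher. The part of level, length and GC content in the family counts was not tested.

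**Figure D4:**
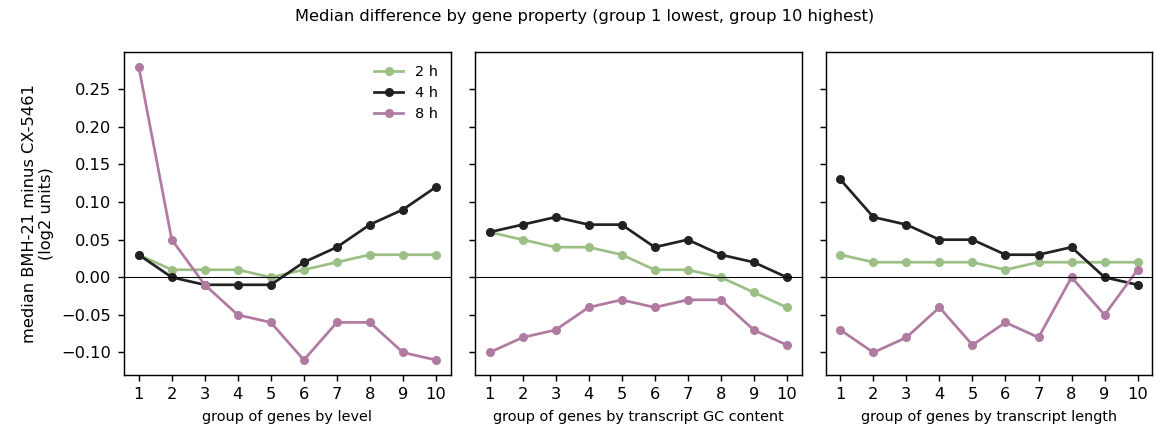
Median difference BMH-21 minus CX-5461 (log2 units) in 10 equal groups of genes ordered by level, transcript GC content and transcript length, at 2, 4 and 8 h. At 4 h the median rises with level from -0.01 in group 5 to 0.12 in group 10, and falls with length from 0.13 to -0.01. At 8 h the group with the lowest level stands at 0.28.

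Histone transcripts found in poly(A) RNA were higher in 20 of 42 (47.6%, beside 27.4% of all genes) and lower in 0 (beside 18.5%). Their median was 0.29, and 22 were not called. The replacement histone gene H3f3b read 11.05, 10.98 and 11.01 against 10.29, 10.24 and 10.20, and the linker histone H1f0 was higher by 0.67. Genes of replication-dependent histones are near-identical copies, and how reads were divided among them is not stated. Polycomb genes were mixed, 12 of 26 higher (46.2%) and 7 lower (26.9%). Cbx8 (0.99), a chromobox subunit of the first repressive complex, was higher while Suz12 (-0.34), of the second, was lower.

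The numbered zinc finger genes, many of which encode KRAB repressors, leaned the opposite way from most families. Of 342 tested 39 were higher (11.4%) and 157 lower (45.9%), beside 27.4% and 18.5% of all genes, with a median of -0.15. Zfp92 was the lowest (-1.41) and Zfp536 the highest (1.04). At 2 h their median was 0.05 with 56 higher and 44 lower, beside 7.83% and 7.58% of all genes. As deposited 12 were higher and 88 lower at 4 h, beside 9.35% and 8.49% of all genes. With median-ratio factors these were 26 and 183, beside 17.6% and 24.1%.

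Genes of the 2-cell embryo state, which a small share of embryonic stem cells enters, were mostly not called. Of 20 tested 7 were higher (35.0%, beside 27.4% of all genes), 1 was lower (5.0%, beside 18.5%) and 12 were not called, with a median of 0.33. Zscan4d, of the family that marks this state, read 2.43, 2.11 and 2.04 under BMH-21 and 1.61, 1.77 and 1.53 under CX-5461 (0.55 ± 0.12). Dux, the factor at the head of the state, read 1.60, 1.54 and 1.47 against 1.03, 0.60 and 1.07, from -2.81 untreated, and was not called at 4 h (0.64 ± 0.32, adjusted p = 0.10). The groups for Dux did not overlap, and 5 of the alternative settings called it, with adjusted p from 0.00032 to 0.038. The Zscan4 genes are close copies whose reads may be shared.

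Retinoic acid and keratin genes held 3 members with large changes from a low start. Cyp26b1, which degrades retinoic acid, read 2.54, 2.58 and 2.49 against 1.67, 1.75 and 1.93, and -2.90 untreated, a difference of 0.76 that was not called without the first CX-5461 replicate (0.70, adjusted p = 0.055). Its relative Cyp26a1 was lower by -1.27, at values from -2.77 to -0.78 in the 6 libraries. Krt5, a basal keratin, rose with both inhibitors from -1.95 untreated to 5.28, 5.27 and 5.26 under BMH-21 and 4.23, 3.89 and 4.23 under CX-5461 (1.15 ± 0.17). Of 15 clock genes 4 were higher (26.7%, beside 27.4% of all genes) and 5 lower (33.3%, beside 18.5%). Hlf (0.74), a clock output factor, was the highest and Per2 (-0.88), a repressor of the clock, the lowest. H2-K1, a class I antigen gene, was higher by 0.61, as was the lysosomal protease Ctsl by 0.44.

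Summed levels of markers of 3 other cell types were higher with BMH-21, without overlap between the libraries. Summed on a linear scale, 7 fibroblast markers stood at 48.1 to 51 under BMH-21 and 33.2 to 37.7 under CX-5461, with 3 of them above the filter and 1 called higher. Primitive endoderm markers summed to 25.6 to 28.2 against 20.5 to 21.8, with 2 of 6 tested called higher, and trophectoderm markers to 72.8 to 74.9 against 63.6 to 66, with 3 of 6 called higher. Over all genes tested 27.4% were called higher and 18.5% lower, so counts in lists this short say little about the markers. The fibroblast markers Col3a1, Dcn, Lum and Postn did not pass the filter. Of 6 mesoderm and 4 neural progenitor markers tested 0 were called in limma, with neural progenitor sums of 184 to 210 against 187 to 193. The 1 blood marker tested was called lower, and blood marker sums were 27.7 to 29.1 against 30 to 33.2. The part of these markers in the differences above was not tested.

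The difference between the inhibitors was smaller at 2 h and larger at 8 h. At 2 h 2261 genes were called (15.4%), 1149 higher (7.83%) and 1112 lower (7.58%) with BMH-21, of which 31 (0.211%) and 44 (0.3%) by at least 2-fold. At 8 h 10513 were called (71.7%), 4559 higher (31.1%) and 5954 lower (40.6%), of which 1236 (8.43%) and 663 (4.52%) by at least 2-fold. The share of calls that were higher depended on the scaling at these times as well. At 2 h it was 50.8% with centred values, 61.9% as deposited and 36.4% with median-ratio factors, and at 8 h it was 43.4%, 15.1% and 48.6%. As deposited the median of all genes stood at -0.48 at 8 h, against -0.06 with centred values.

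Genes higher at 4 h tended to be higher at 2 h too. Of the 4012 genes higher at 4 h, 82.4% had the same sign at 2 h, beside 57.2% of all genes, and 781 were called higher there and 100 lower. At 8 h 58.6% had the same sign, beside 44.7% of all genes, with 1771 called higher and 1136 lower.

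Genes lower at 4 h were lower at the other times more often than all genes were. Of these 2707, 75.9% had the same sign at 2 h beside 42.8%, and 75.5% at 8 h beside 55.3%, where 1675 were called lower and 453 higher. Across the 14666 genes the differences at 4 h had a Pearson correlation of 0.46 with those at 2 h and 0.37 with those at 8 h (Spearman 0.44 and 0.33). Genes are not independent replicates, so these are descriptions.

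The 23 genes named by size were chosen on that time, and their other times come from other libraries. All 12 genes named as highest with BMH-21 were called higher at 2 h and at 8 h too. Of the 11 named as lowest, Insm1 and Spry4 were called lower at 2 h and 9 were not called. Foxd3, Zic5 and Zic2 were among those 9, at -0.13, -0.15 and -0.02. At 8 h 8 of the 11 were lower, Ctgf was not called (-0.02), and Insm1 (0.88) and Mvb12b (0.76) were higher with BMH-21. Fgf15 (-3.29) and Foxd3 (-3.11) had the largest differences of the 11 at 8 h.

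**Figure D5:**
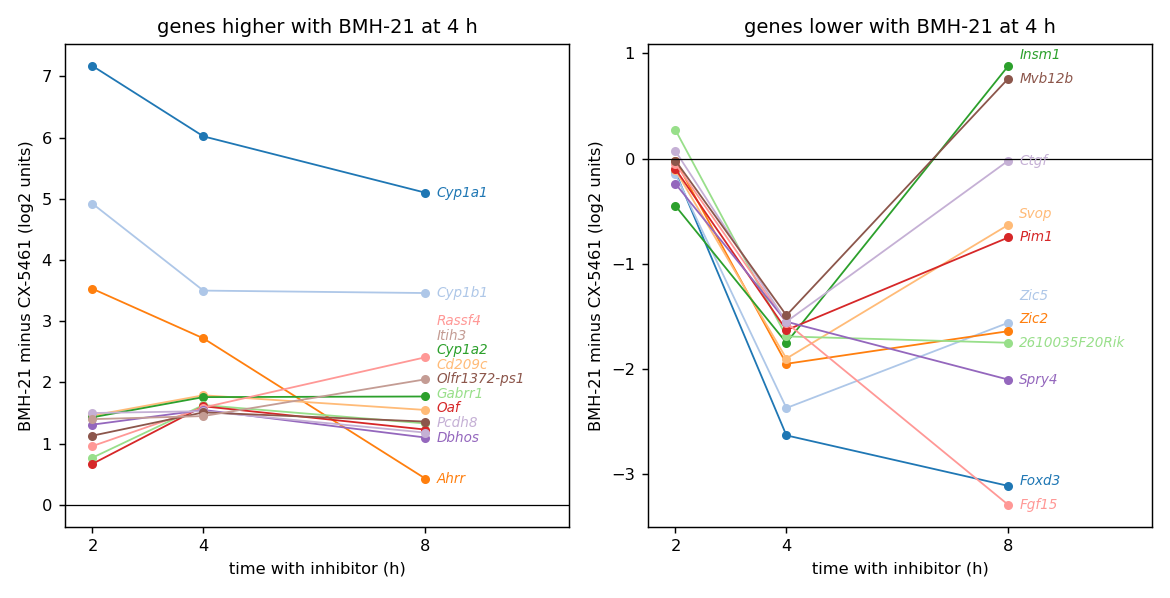
Difference BMH-21 minus CX-5461 (log2 units) at 2, 4 and 8 h in the 12 genes named as highest and the 11 named as lowest at 4 h, with 1 line per gene through the 3 times. On the left every gene is above 0 at each time, and Ahrr drops to 0.43 at 8 h. On the right the genes lie near 0 at 2 h and are low at 4 h, after which Insm1 and Mvb12b cross to positive values.

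Tests of the change in the difference showed how far the times differed. From 2 h to 4 h the difference changed in 2460 genes (16.8%), 1328 upward (9.05%) and 1132 downward (7.72%). From 4 h to 8 h it changed in 8824 (60.2%), 3514 upward (24%) and 5310 downward (36.2%). As deposited, 33.2% of the first changes and 11.5% of the second were upward, against 54.0% and 39.8% with centred values, and with median-ratio factors 42.8% and 52.3%. Nanog went from -0.06 at 2 h and -0.54 at 4 h to -1.44 at 8 h. Mdm2 went from -0.09 to 0.58 and 1.39, and Jun from 0.05 and -0.08 to 1.16. Klf6 changed sign between times, at 0.63, -0.87 and 0.66, and was called at each. Plk1 went from 0.28 at 2 h through 0.39 to -0.25 at 8 h.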

How the data were processed

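Poly(A) RNA of 21 libraries was measured, 7 groups of 3, with groups and replicate numbers taken from the sample titles. The deposited values are log2 expression per gene, normalized by the authors with voom per the file name, in which every value is a whole read count plus 0.5 over a library-specific scale. Whole reads were recovered from them within 1.8e-08 of a read. The submitters' processing notes name the mm10 build, Trim Galore 0.5.0, TopHat2 2.1.1, R 4.0.5, DESeq2 1.30.1, edgeR 3.32.1 and limma 3.46.0, without their roles. The counting program, gene annotation, strand setting and filters are not given in the sources used here. A bias of those steps that multiplies the reads of a gene by the same factor in all libraries cancels in the comparison. Reads taken from another gene and unequal scaling need not cancel.

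Genes above 0 in at least 3 libraries were tested: 185 had exactly 3 such libraries, and 155 genes with exactly 2 were left out. 4932412D23Rik (8.95e-04) lay just inside and Spdye4b (-6.03e-03) just outside. Each library was centred on its median over the genes tested. limma 3.58.1 in R 4.3.3 was fitted to all 21 libraries with 1 mean per group (14 residual degrees of freedom), an intensity trend and two-sided p-values adjusted by Benjamini-Hochberg over all 14666 genes, with a threshold of 0.05. Errors of differences are limma's SE; ± after an untreated mean is the SD (n = 3). Reads of replicate pairs differed beyond counting error (chi-square over its degrees of freedom 3.92 to 17.61), so each library counts as 1 sample. In data simulated for the 4 h comparison (14205 genes in the fit) 62% of 50 genes changed 1.25-fold were recovered. Of those changed 1.5-fold, 2-fold or 4-fold 100% were recovered, and 0.05% of 14005 unchanged genes were called. Most genes were thus unchanged there, whereas 6719 of 14666 genes were called in the measured libraries. The accuracy of the calls in the measured libraries was not tested.

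Named genes are the 12 largest centred differences in each direction among genes called both centred and as deposited, with a mean log2 value of at least 0 in the 6 libraries and no overlap on either scale, plus list members with the largest called differences or a role that the text explains. A gene that the size rule selects in the lower direction, and a few list members, are not reported here, though counts over lists and all genes hold them. The members and lists were chosen with earlier results of these data known. Gene positions are from GENCODE M21 on GRCm38, matched by symbol for 14145 genes tested (96.4%), and promoters are from RefSeq. Figures were drawn with matplotlib 3.10.9. Alternatives covered scaling, filters, low values, the variance model, GC content, a replicate block and leaving out each replicate.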

Additional observations from a re-analysis of the deposited data

Results flagged for a closer look

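The difference between the inhibitors changed with time by limma's interaction test (adjusted p under 0.05) in 2460 genes from 2 h to 4 h and in 8824 genes from 4 h to 8 h. Values below are changes of the difference BMH-21 minus CX-5461 in log2 units, for the 23 genes named by size. These genes were chosen for their difference at 4 h, which both tests use.

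From 2 h to 4 h 3 AhR targets moved toward CX-5461: Cyp1a1 by -1.15, Cyp1b1 by -1.42 and Ahrr by -0.81. The change in Cyp1a2 (0.33, adjusted p = 0.10) did not pass. Other genes of the higher group moved further apart, Cd209c by 0.34, Gabrr1 by 0.86, Oaf by 0.94 and Rassf4 by 0.63. All 11 genes named in the lower group moved down. Among the transcription factors these were Foxd3 (-2.50), Zic5 (-2.21), Zic2 (-1.93) and Insm1 (-1.29), with the transcript 2610035F20Rik (-1.96) between the Zic genes. Among the signalling genes they were Fgf15 (-1.51), Spry4 (-1.32), Pim1 (-1.53) and Ctgf (-1.62). Svop moved by -1.79 and Mvb12b by -1.47.

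From 4 h to 8 h Ahrr moved most among the higher genes, by -2.29, with Cyp1a1 at -0.92, Cd209c at -0.24 and Dbhos at -0.45. Rassf4 (0.82) and Itih3 (0.60) moved further up. In the lower group Foxd3 (-0.48), Fgf15 (-1.73) and Spry4 (-0.55) moved further down. Insm1 (2.62), Mvb12b (2.25), Ctgf (1.53), Svop (1.27), Pim1 (0.88), Zic5 (0.80) and Zic2 (0.31) moved up.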

How the results depend on the processing

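As deposited, without centring, 2617 genes differed at 4 h, 585 at 2 h and 488 between the differences at 2 h and 4 h. Genes at least 2-fold apart at 4 h numbered 305 with quantile normalization, 427 with all genes in the table tested and 91 with values below 0 set to 0. The number tested itself changes in the second. Leaving out 1 replicate gave 5602 to 6089 genes at 4 h, 167 to 189 at least 2-fold apart, 1634 to 1781 at 2 h, 9844 to 10453 at 8 h, 1956 to 2326 for the change from 2 h to 4 h and 8312 to 9220 for that from 4 h to 8 h. All 458 refits of the 23 genes named by size kept direction and side of the threshold. These genes were chosen as the largest differences called both centred and as deposited, so this outcome was close to given. The sign of Pou5f1 turned with quantile normalization (-0.01). Esrrb, not called, turned with median-ratio factors (-0.04), quantile normalization (-0.08) and the GC trend removed (-0.02), with or without a replicate block. With values below 0 set to 0, Fgf5 (-0.12, adjusted p = 0.49 in limma) and Cyp26a1 (-0.01) lost their calls. Of the list members named, Brca1, Fgfr1, Gstp1, Hspa5, Orc1, Polr1a, Pou5f1, Ptges3, Slc7a5, Tigar and Trp53 were called with centred values and not as deposited. The causes were not tested.

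Replicate numbers showed no clear pairing of the libraries: deviations of same-numbered libraries correlated at -0.074, 0.084 and -0.061. Those of differently numbered libraries correlated at -0.096 to 0.159. With 3 replicates per inhibitor these values cannot decide whether the replicates were paired. With the replicate block 6535 genes were called at 4 h. A log2 value of 0 rests on 46 to 65 reads, which limits genes such as Svop, Ahrr and Fgf5.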

Other observations

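Several gene groups whose counts are not given above had medians from -0.15 to 0.16 at 4 h. Counts are of genes called by limma with centred values, beside 27.4% higher, 18.5% lower and a median of 0.05 over all genes tested. Among 77 mitochondrial ribosomal protein genes 33 were higher with BMH-21 and 2 lower, with a median of 0.12. Lysosome and autophagy genes had 14 of 24 higher (58.3%) and 2 lower (median 0.16). As deposited 2 of the mitochondrial ribosomal protein genes and 4 of the lysosome and autophagy genes were higher, beside 9.35% of all genes. With median-ratio factors 13 and 12 were higher, beside 17.6%. Cholesterol synthesis genes had 8 of 24 higher and 3 lower (median 0.07), and glycolysis and hypoxia-responsive genes 7 of 20 higher and 2 lower (median 0.09). Of 21 RNA polymerase III genes 7 were higher and 2 lower (median 0.06). SR splicing factors and CLK kinases had 2 of 19 higher and 2 lower (median 0.02), and of 13 snoRNA host genes 1 was higher and 5 lower (median -0.15). DNA methylation and TET enzymes had 4 of 8 higher and 1 lower (median 0.08).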
